A study of Homo sapiens with 18 samples.

Results

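The SLC25 carriers are the proteins that move nucleotides, organic acids, amino acids, phosphate and cofactors across the mitochondrial inner membrane. Their mRNAs were followed in 16D (a prostate cancer line of the castration-resistant kind), in which OGDHL was targeted with Cas9. The family was taken as every gene whose symbol is SLC25A and a number, which gave 48 of the 26863 named genes in the deposited table. Of these, 38 reached 1 TPM in at least 3 libraries and were tested, among 16067 genes tested in all.

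All cells had received Cas9 and a guide RNA by lentivirus and were then kept for 6 weeks with drug or vehicle. The 6 groups were guide 1 (sgOGDHL_1) in enzalutamide, guide 2 (sgOGDHL_2) in enzalutamide, the control guide (sgAAVS) in enzalutamide, guide 1 in DMSO, guide 2 in DMSO and the control guide in DMSO, with 3 libraries each and 18 in all. Enzalutamide, an antagonist of the androgen receptor, was given at 10 µM. Cells with the control guide, aimed at a safe-harbour site, are called control cells here. The labels do not say whether the infected cells were pools or clones, or whether the replicates were separate cultures. The p-values therefore cover the spread between the libraries, which may be technical.

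Carriers of this family share a common fold in the inner membrane, and most exchange a solute of the matrix for one of the intermembrane space. The ADP/ATP carriers hand newly made ATP to the cytosol, the 2-oxoglutarate and aspartate-glutamate carriers run the malate-aspartate shuttle, and the citrate carrier exports citrate, which normal prostate epithelium secretes and which also feeds lipid synthesis. OGDHL, the targeted gene, encodes a protein related to OGDH, a subunit of the enzyme that breaks down 2-oxoglutarate in the matrix.

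Levels are given in TPM, reads scaled by transcript length and by library total, after the mitochondrially encoded rows had been dropped and each library rescaled to 1000000. Levels of different carriers can therefore be set beside each other, but the read depth behind a value is unknown. A change is a difference in log2(TPM + 1), enzalutamide less DMSO or OGDHL guide less control guide, from limma fitted to all 18 libraries. A gene was called, and is said to have risen or fallen, at a Benjamini-Hochberg adjusted p under 0.05 over the 16067 genes. Fewer cells of a kind and less RNA per cell cannot be told apart in such bulk libraries.

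Some libraries stood apart. OGDHL had 2.56, 2.62 and 2.30 TPM in guide 1 cells, 4.14, 4.33 and 4.35 TPM in guide 2 cells and 7.63, 7.85 and 7.43 TPM in control cells, all in enzalutamide. In DMSO it had 1.93, 2.29 and 3.16 TPM in guide 1 cells, 6.17, 7.31 and 6.54 TPM in the libraries labelled guide 2, and 4.68, 4.86 and 4.62 TPM in control cells. The libraries labelled guide 2 in DMSO thus went against their label (log2 change 0.42, limma adjusted p = 0.00088), correlated at 0.887 to 0.920 with the other libraries, against 0.950 to 0.996 among the rest, and had 1407 to 1630 rows at 0, against 3042 to 4498 elsewhere. The mitochondrially encoded rows took 73.8%, 69.9% and 57.2% of the deposited TPM in the guide 1 libraries in DMSO, and 50.1% to 62.3% in the others. KLK3, the androgen-induced gene of prostate-specific antigen, had 1951 to 2145 TPM in guide 1 cells in enzalutamide, 256 to 272 TPM in guide 2 cells in enzalutamide and 126 to 136 TPM in control cells in enzalutamide, against 805 to 851 TPM in control cells in DMSO. It had 821 to 1053 TPM in guide 1 cells in DMSO, so that it was higher with the drug in guide 1 cells (log2 change 1.13, limma adjusted p = 9.1e-09) and lower with it in control cells (-2.64, adjusted p = 2.5e-13). Whether the guide 1 libraries in enzalutamide carry the right drug label, or the drug acted in these cells, was not tested, and every guide 1 value in enzalutamide below is read with that limit. All 6 luminal prostate markers examined were expressed. Of 11 markers of leukocytes, fibroblasts and endothelium, 2 (CD68 and COL1A1) reached 1 TPM in any library, and CD68 had 21.4 to 27.1 TPM in the libraries labelled guide 2 in DMSO, against 0.764 to 1.79 TPM elsewhere. The part of these differences in the results below was not tested.

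The ADP/ATP carrier SLC25A5 had the highest level of the family, at 739.9 ± 29.4 TPM in control cells in enzalutamide and 1385 ± 20.4 TPM in control cells in DMSO (SD, n = 3 each), and alone made up 27.2% ± 0.352 of the family's summed TPM in enzalutamide and 39.6% ± 0.200 in DMSO. The ADP/ATP carrier SLC25A6 came next, at 498 ± 34.1 TPM in enzalutamide and 509 ± 2.14 TPM in DMSO. In control cells in enzalutamide the 2-oxoglutarate carrier SLC25A11, at 322 ± 13.6 TPM, stood above the phosphate carrier SLC25A3, at 254 ± 11.1 TPM, and the glutathione carrier SLC25A39 and the citrate carrier SLC25A1 overlapped, with 201 to 223 TPM and 189 to 209 TPM. In control cells in DMSO the order was SLC25A3 (322 ± 2.38 TPM), SLC25A11 (299 ± 3.62 TPM), SLC25A39 (235 ± 3.57 TPM) and SLC25A1 (216 ± 6.54 TPM), and none of these neighbours overlapped across the 3 libraries.

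The family's summed level was 2654 to 2866 TPM in control cells in enzalutamide and 3459 to 3520 TPM in control cells in DMSO. Without SLC25A5 the same sums were 1923 to 2093 TPM in enzalutamide and 2098 to 2123 TPM in DMSO. Most of the lower sum in the drug therefore lay in SLC25A5. In enzalutamide, 16 of the 38 tested carriers were called in control cells, 5 higher and 11 lower, where 47.9% of all genes were called, 23.1% higher and 24.8% lower. The carriers' median change was -0.09, against -0.01 over all genes. The called share, 42.1%, was thus near that of all genes. On TPM as deposited, with the mitochondrially encoded rows kept, 5 carriers were called (SLC25A5, SLC25A13, SLC25A17, SLC25A24 and SLC25A33), where 20.8% of all genes were.

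The ADP/ATP carriers showed the change that stood out by amount. SLC25A5, also known as ANT2 and typical of dividing cells, lies on chromosome X (119468400 to 119471319, plus strand, GRCh38). SLC25A6, or ANT3, lies in the pseudoautosomal region of the same chromosome (1386152 to 1392724, minus strand), and SLC25A4, or ANT1, the form of heart and muscle, on chromosome 4 (185143241 to 185150382, plus strand). The 250 bases before the RefSeq starts of SLC25A5 and SLC25A6 are shown because this pair of carriers for the same substrates parted in the drug, and those of SLC25A33, a pyrimidine nucleotide carrier, because its mRNA fell with that of SLC25A5 (RefSeq sequences, GRCh38.p14). Capitals mark a match, on either strand, to AGAACA, the half-site bound by the androgen receptor, or to the E-box CACGTG.
SLC25A5, chrX:119468194-119468443, plus strand: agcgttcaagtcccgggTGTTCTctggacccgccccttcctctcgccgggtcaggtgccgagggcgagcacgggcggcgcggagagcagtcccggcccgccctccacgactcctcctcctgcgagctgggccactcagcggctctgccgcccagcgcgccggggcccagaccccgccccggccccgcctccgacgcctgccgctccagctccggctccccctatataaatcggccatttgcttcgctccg
SLC25A6, chrX:1392114-1392363, minus strand: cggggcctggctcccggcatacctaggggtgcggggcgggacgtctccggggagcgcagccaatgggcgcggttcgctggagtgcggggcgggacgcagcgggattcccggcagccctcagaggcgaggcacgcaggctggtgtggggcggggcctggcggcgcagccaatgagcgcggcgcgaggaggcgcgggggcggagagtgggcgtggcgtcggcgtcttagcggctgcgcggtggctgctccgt
SLC25A33, chr1:9539215-9539464, plus strand: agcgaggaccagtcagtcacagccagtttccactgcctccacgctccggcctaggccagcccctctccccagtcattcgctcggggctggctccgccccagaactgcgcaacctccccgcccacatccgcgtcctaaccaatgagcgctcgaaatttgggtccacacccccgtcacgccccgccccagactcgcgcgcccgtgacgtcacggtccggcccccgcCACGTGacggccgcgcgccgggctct
The SLC25A5 window held the half-site at position -233 from the start, the SLC25A33 window an E-box at -26, and the SLC25A6 window held neither motif. RefSeq starts differ from the gene ends given above, which are from GENCODE. The SLC25A6 window lies wholly within its GENCODE span, so that the bases before its GENCODE start were not searched. The SLC25A5 window runs past the GENCODE start of that gene. AGAACA occurred in 5 of 50 windows of 40 carriers (10.0%) and in 12.4% of 35116 windows of all genes in the RefSeq table. CACGTG occurred in 8 carrier windows (16.0%) and in 6.34% of all, and CCAAT in 21 (42.0%) and in 32.0% of all. Some of these windows overlap, both strands were searched, and a match is a run of letters and no evidence of binding.

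SLC25A5 had 773, 715 and 732 TPM in control cells in enzalutamide, against 1361, 1397 and 1397 TPM in control cells in DMSO. No library of one group reached the other. It fell by 0.90 on the log2 scale (SE 0.08, limma adjusted p = 1.9e-07). SLC25A6 had 537, 483 and 474 TPM in control cells in enzalutamide, against 510, 511 and 507 TPM in DMSO, and the groups overlapped (-0.04, SE 0.08, adjusted p = 0.76). SLC25A4 had 63.1, 59.3 and 59.1 TPM in enzalutamide and 63.4, 62.2 and 63.1 TPM in DMSO, and was not called either (-0.06, SE 0.04, adjusted p = 0.27).

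**Figure D1:**
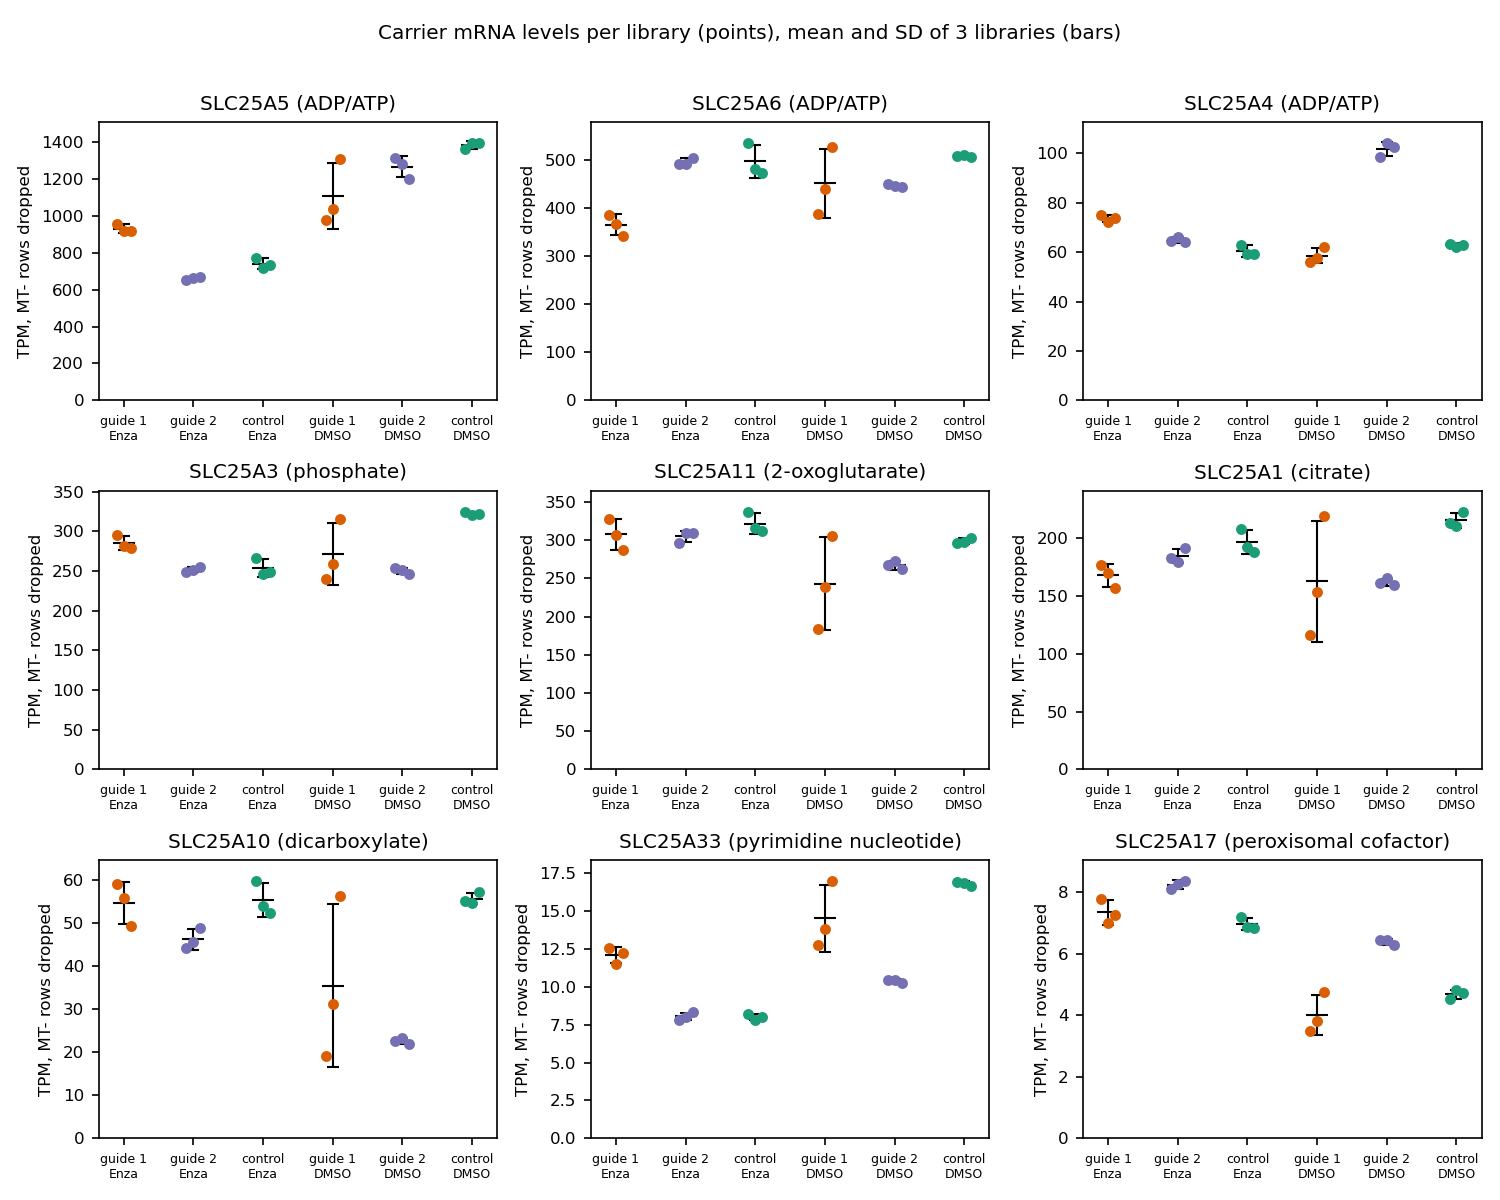
TPM of 9 carriers in each library (points, y axis from 0), with the mean and SD of 3 libraries (bars), for guide 1, guide 2 and control cells in enzalutamide (Enza) and in DMSO. SLC25A5 sits at 715 to 773 TPM in control cells in enzalutamide, 917 to 958 TPM in guide 1 cells in enzalutamide and 1361 to 1397 TPM in control cells in DMSO, and the guide 1 libraries in DMSO spread most.

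With guide 1 the drug-treated cells had more SLC25A5 and SLC25A4 and less SLC25A6 than drug-treated control cells. SLC25A5 had 958, 919 and 917 TPM in guide 1 cells in enzalutamide, all above the 773, 715 and 732 TPM of control cells in enzalutamide (log2 change 0.33, SE 0.08, limma adjusted p = 0.0046). SLC25A6 had 386, 368 and 343 TPM in those guide 1 cells, all below control cells (-0.44, SE 0.08, adjusted p = 0.00090). SLC25A4 had 74.9, 72.2 and 73.8 TPM, against 59.1 to 63.1 TPM in control cells (0.28, SE 0.04, adjusted p = 8.5e-05). Guide 2 cells in enzalutamide had 652, 661 and 669 TPM of SLC25A5 (-0.16, SE 0.08, adjusted p = 0.21) and 493, 493 and 506 TPM of SLC25A6 (0.0011, SE 0.08, adjusted p = 1). KLK3 moved with the guide 1 difference, as given above, and its part in it was not tested.

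The shares of the 3 ADP/ATP carriers in their own sum do not depend on how a library was scaled. SLC25A5 made up 56.3%, 56.9% and 57.9% of that sum in control cells in enzalutamide, against 70.4%, 70.9% and 71.0% in control cells in DMSO. SLC25A6 made up 38.3% ± 0.828 in control cells in enzalutamide, against 26.0% ± 0.298 in DMSO (SD, n = 3). The SLC25A5 share of guide 2 cells was 53.9%, 54.2% and 54.0% in enzalutamide, against 70.5%, 70.0% and 68.8% in the libraries labelled guide 2 in DMSO. In guide 1 cells it was 67.5%, 67.6% and 68.7% in enzalutamide and 68.8%, 67.6% and 68.9% in DMSO, and these overlapped. Guide 1 cells in enzalutamide thus held a SLC25A5 share 10.9 percentage points above that of control cells in enzalutamide, while guide 2 cells differed by -2.99 points from it. With 3 libraries against 3, the two-sided exact permutation test cannot go below p = 0.10, which all of these differences except that of guide 1 cells with the drug (p = 0.30) reached. Over the 42 tests of such shares and ratios the adjusted p was 0.14 at that lowest value.

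**Figure D2:**
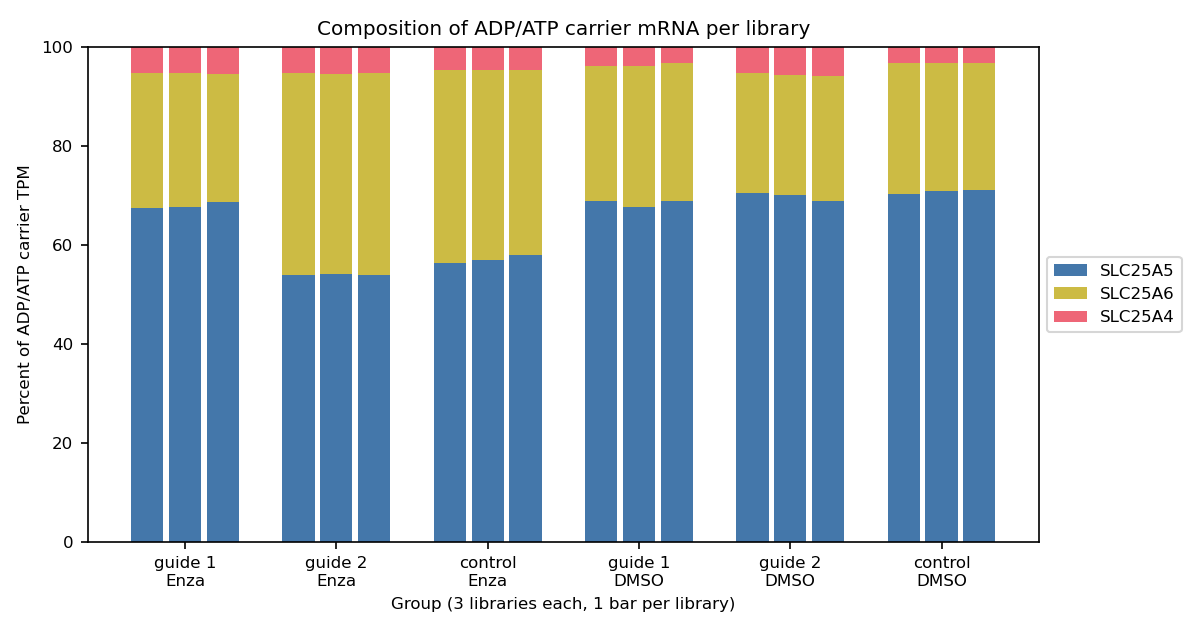
Share of SLC25A5, SLC25A6 and SLC25A4 in their summed TPM (y axis, percent), 1 bar per library, 3 libraries per group. The SLC25A5 segment is 56.3% to 57.9% in control cells in enzalutamide and 53.9% to 54.2% in guide 2 cells in enzalutamide, and 67.5% or more in the other 4 groups.

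Rows with near-identical sequence limit the reading of SLC25A5. Its processed copy SLC25A5P2 had 23.8 ± 2.92 TPM in control cells in enzalutamide and 40.3 ± 2.77 TPM in DMSO (SD, n = 3) and fell as SLC25A5 did (-0.74, limma adjusted p = 7.8e-05). Of the other copies that reached 1 TPM, SLC25A5P3 (-1.05, limma adjusted p = 0.00044) and SLC25A5P5 (-0.63, adjusted p = 0.041) fell too. SLC25A5P1, at 1.36 ± 0.254 TPM in enzalutamide and 1.53 ± 0.365 TPM in DMSO, was not called (-0.09, limma adjusted p = 0.68). How the authors' counting split reads between the copies is not given in the sources used here. Its antisense row SLC25A5-AS1, which lies beside the gene, was not called with the drug in control cells (-0.02, adjusted p = 0.80). For guide 1 against control cells in enzalutamide, SLC25A5-AS1 was lower (-0.19, limma adjusted p = 0.044). None of the copies was called there: SLC25A5P2 (0.30, adjusted p = 0.063), SLC25A5P3 (0.35, adjusted p = 0.20), SLC25A5P5 (0.18, adjusted p = 0.61) and SLC25A5P1 (-0.01, adjusted p = 0.96). The testis form SLC25A31 was at 0 in 10 libraries.

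Of the 15 tested carriers of nucleotides and cofactors, ADP/ATP carriers included, 2 rose and 5 fell with enzalutamide in control cells, a share near the 47.9% of all genes called. SLC25A33, which brings pyrimidine nucleotides into mitochondria, had 8.19, 7.78 and 8.03 TPM in control cells in enzalutamide, against 16.9, 16.9 and 16.7 TPM in DMSO. The groups lay far apart, and it fell by 0.99 (SE 0.07, limma adjusted p = 2.6e-08). SLC25A17, a peroxisomal carrier of coenzyme A and related cofactors, had 7.19, 6.87 and 6.82 TPM in enzalutamide, against 4.52, 4.81 and 4.72 TPM in DMSO (0.49, SE 0.07, adjusted p = 2.9e-05). The groups did not overlap for this gene either.

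In guide 1 cells in enzalutamide, SLC25A33 stood above control cells in enzalutamide. SLC25A33 had 12.6, 11.5 and 12.2 TPM there, against 8.19, 7.78 and 8.03 TPM in control cells (0.54, SE 0.07, limma adjusted p = 3.9e-05). This guide 1 level in the drug stayed below the 16.7 to 16.9 TPM of SLC25A33 in control cells in DMSO. SLC25A17 had 7.76, 6.99 and 7.25 TPM in guide 1 cells in enzalutamide and rose with the drug there too, against 3.47, 3.81 and 4.74 TPM in guide 1 cells in DMSO (0.74, SE 0.07, adjusted p = 6.1e-07). With guide 2 in enzalutamide, SLC25A33 was not called against control cells, at 7.83 to 8.31 TPM, and the coenzyme A carrier SLC25A16 had 8.18, 8.37 and 8.24 TPM, against 6.90, 6.46 and 6.86 TPM in control cells (0.26, SE 0.05, adjusted p = 0.0026).

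The carrier of the metabolite nearest to OGDHL, SLC25A11, exchanges 2-oxoglutarate for malate (chromosome 17, 4937130 to 4940251, minus strand). It had 328, 307 and 287 TPM in guide 1 cells, 296, 310 and 309 TPM in guide 2 cells and 337, 315 and 312 TPM in control cells, all in enzalutamide. Guide 1 overlapped with control cells (-0.07, SE 0.12, limma adjusted p = 0.74), and guide 2 lay just below them (-0.08, SE 0.12, adjusted p = 0.78). In DMSO it had 184, 239 and 306 TPM in guide 1 cells, 267, 273 and 262 TPM in the libraries labelled guide 2 and 296, 298 and 303 TPM in control cells, with adjusted p = 0.051 for guide 1 and 0.24 for guide 2. SLC25A11 was not called in any of the 4 guide comparisons. Within guide 1 cells it rose with enzalutamide (0.37, SE 0.12, adjusted p = 0.024), although the groups overlapped, and that call was lost without guide 1 library 1 or 2 in either DMSO or enzalutamide. Its drug effect in guide 1 cells was not called different from that in control cells (0.26, SE 0.17, adjusted p = 0.27). The oxoadipate carrier SLC25A21, which also takes 2-oxoglutarate, had at most 0.0548 TPM in any library and was not tested.

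SLC25A1, which exports citrate (chromosome 22, 19175575 to 19178830, minus strand), had 177, 170 and 157 TPM in guide 1 cells, 183, 179.9 and 192 TPM in guide 2 cells and 209, 193 and 189 TPM in control cells, all in enzalutamide. Neither guide passed the test in the drug (-0.23, SE 0.15, limma adjusted p = 0.28 for guide 1, and -0.09, adjusted p = 0.80 for guide 2). In DMSO it had 116, 153 and 219.6 TPM in guide 1 cells, 161, 165 and 159.7 TPM in the libraries labelled guide 2 and 213, 211 and 223 TPM in control cells, and fell with both (-0.45, adjusted p = 0.037 and -0.41, adjusted p = 0.022, SE 0.15 each). The call with guide 1 was lost without any 1 of the 3 control libraries or without guide 1 library 1 or 2, and that with guide 2 without control library 3 or guide 2 library 3. Within a library, the ratio of SLC25A11 to SLC25A1 was 1.83 ± 0.0250 in guide 1 cells in enzalutamide, 1.64 ± 0.0195 in control cells in enzalutamide and 1.39 ± 0.0277 in control cells in DMSO (SD, n = 3), with no overlap between these groups (exact permutation p = 0.10, the lowest possible). The other groups did not show this order. Guide 2 cells in enzalutamide had 1.65 ± 0.0636 and overlapped both control cells in enzalutamide and the libraries labelled guide 2 in DMSO (1.65 ± 0.00899). Guide 1 cells in DMSO had 1.51 ± 0.104 and overlapped control cells in DMSO (exact permutation p = 0.20).

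The dicarboxylate carrier SLC25A10 exchanges malate or succinate for phosphate. It had 59.0, 55.7 and 49.4 TPM in guide 1 cells, 44.2, 45.6 and 48.8 TPM in guide 2 cells and 59.8, 53.8 and 52.4 TPM in control cells, all in enzalutamide, and neither guide was called. In DMSO it had 19.0, 31.1 and 56.3 TPM in guide 1 cells, 22.7, 23.3 and 21.9 TPM in the libraries labelled guide 2, and 55.1, 54.7 and 57.1 TPM in control cells. The third guide 1 library lay within the range of control cells. The guide 2 libraries were uniformly lower (-1.26, SE 0.24, limma adjusted p = 0.00025). SLC25A30, another carrier of dicarboxylates and sulfur oxyanions, had 10.3, 9.42 and 10.3 TPM in guide 1 cells, 8.89, 9.40 and 9.24 TPM in guide 2 cells and 7.57, 7.11 and 7.78 TPM in control cells in enzalutamide. Both guides were above control cells (0.38, adjusted p = 1.7e-05 and 0.26, adjusted p = 0.0012, SE 0.04 each). The 2 comparisons share their control libraries, and neither call stood on TPM as deposited.

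The phosphate carrier SLC25A3, which supplies ATP synthase, had 267, 246 and 249 TPM in control cells in enzalutamide, against 325, 320.1 and 322 TPM in DMSO. The groups were apart, and it fell by 0.34 (SE 0.07, limma adjusted p = 0.0010). In guide 1 cells it had 295, 281 and 278 TPM in enzalutamide and 240.3, 259 and 316 TPM in DMSO, which overlapped. The iron importer SLC25A37, or mitoferrin 1, had 37.9, 36.2 and 36.6 TPM in guide 1 cells, 38.7, 41.1 and 39.5 TPM in guide 2 cells and 30.2, 32.5 and 32.9 TPM in control cells in enzalutamide. It rose with guide 1 (0.21, SE 0.06, adjusted p = 0.024) and with guide 2 (0.31, SE 0.06, adjusted p = 0.0046). These comparisons share their control libraries, and neither call stood on TPM as deposited. The call with guide 1 was lost without control library 1 or guide 1 library 1 or 3 in enzalutamide.

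Among the 10 tested carriers of amino acids and their derivatives, 1 rose and 3 fell with enzalutamide in control cells, against 47.9% of all genes called. The glycine carrier SLC25A38, which feeds haem synthesis, had 36.8, 35.4 and 35.6 TPM in control cells in enzalutamide, against 25.4, 27.9 and 27.8 TPM in DMSO (0.40, SE 0.06, limma adjusted p = 9.8e-05). The ornithine carrier SLC25A15 of the urea cycle had 13.3, 12.0 and 13.6 TPM in enzalutamide, against 16.7, 17.5 and 16.8 TPM in DMSO (-0.37, SE 0.07, adjusted p = 0.00033). The aspartate-glutamate carrier SLC25A13, or citrin, had 1.52, 1.37 and 1.44 TPM in enzalutamide, against 2.20, 2.29 and 2.19 TPM in DMSO (-0.40, SE 0.03, adjusted p = 1.8e-07). The groups were apart for these 3 genes. Its counterpart SLC25A12, or aralar, stayed between 0.784 and 0.999 TPM and was not tested.

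The guide 1 cells in enzalutamide were set apart from control cells in the drug at 2 of these genes in the opposite direction. SLC25A38 had 30.5, 28.5 and 28.6 TPM there, against 35.4 to 36.8 TPM in control cells (-0.29, SE 0.06, limma adjusted p = 0.0026). SLC25A15 had 16.7, 16.4 and 15.6 TPM, against 12.0 to 13.6 TPM in control cells (0.30, SE 0.07, adjusted p = 0.0028). Of SLC25A35, a carrier with no assigned role here, control cells had 16.0, 16.1 and 15.0 TPM in enzalutamide and 19.8, 22.8 and 19.6 TPM in DMSO (-0.38, SE 0.08, adjusted p = 0.0019).

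**Figure D3:**
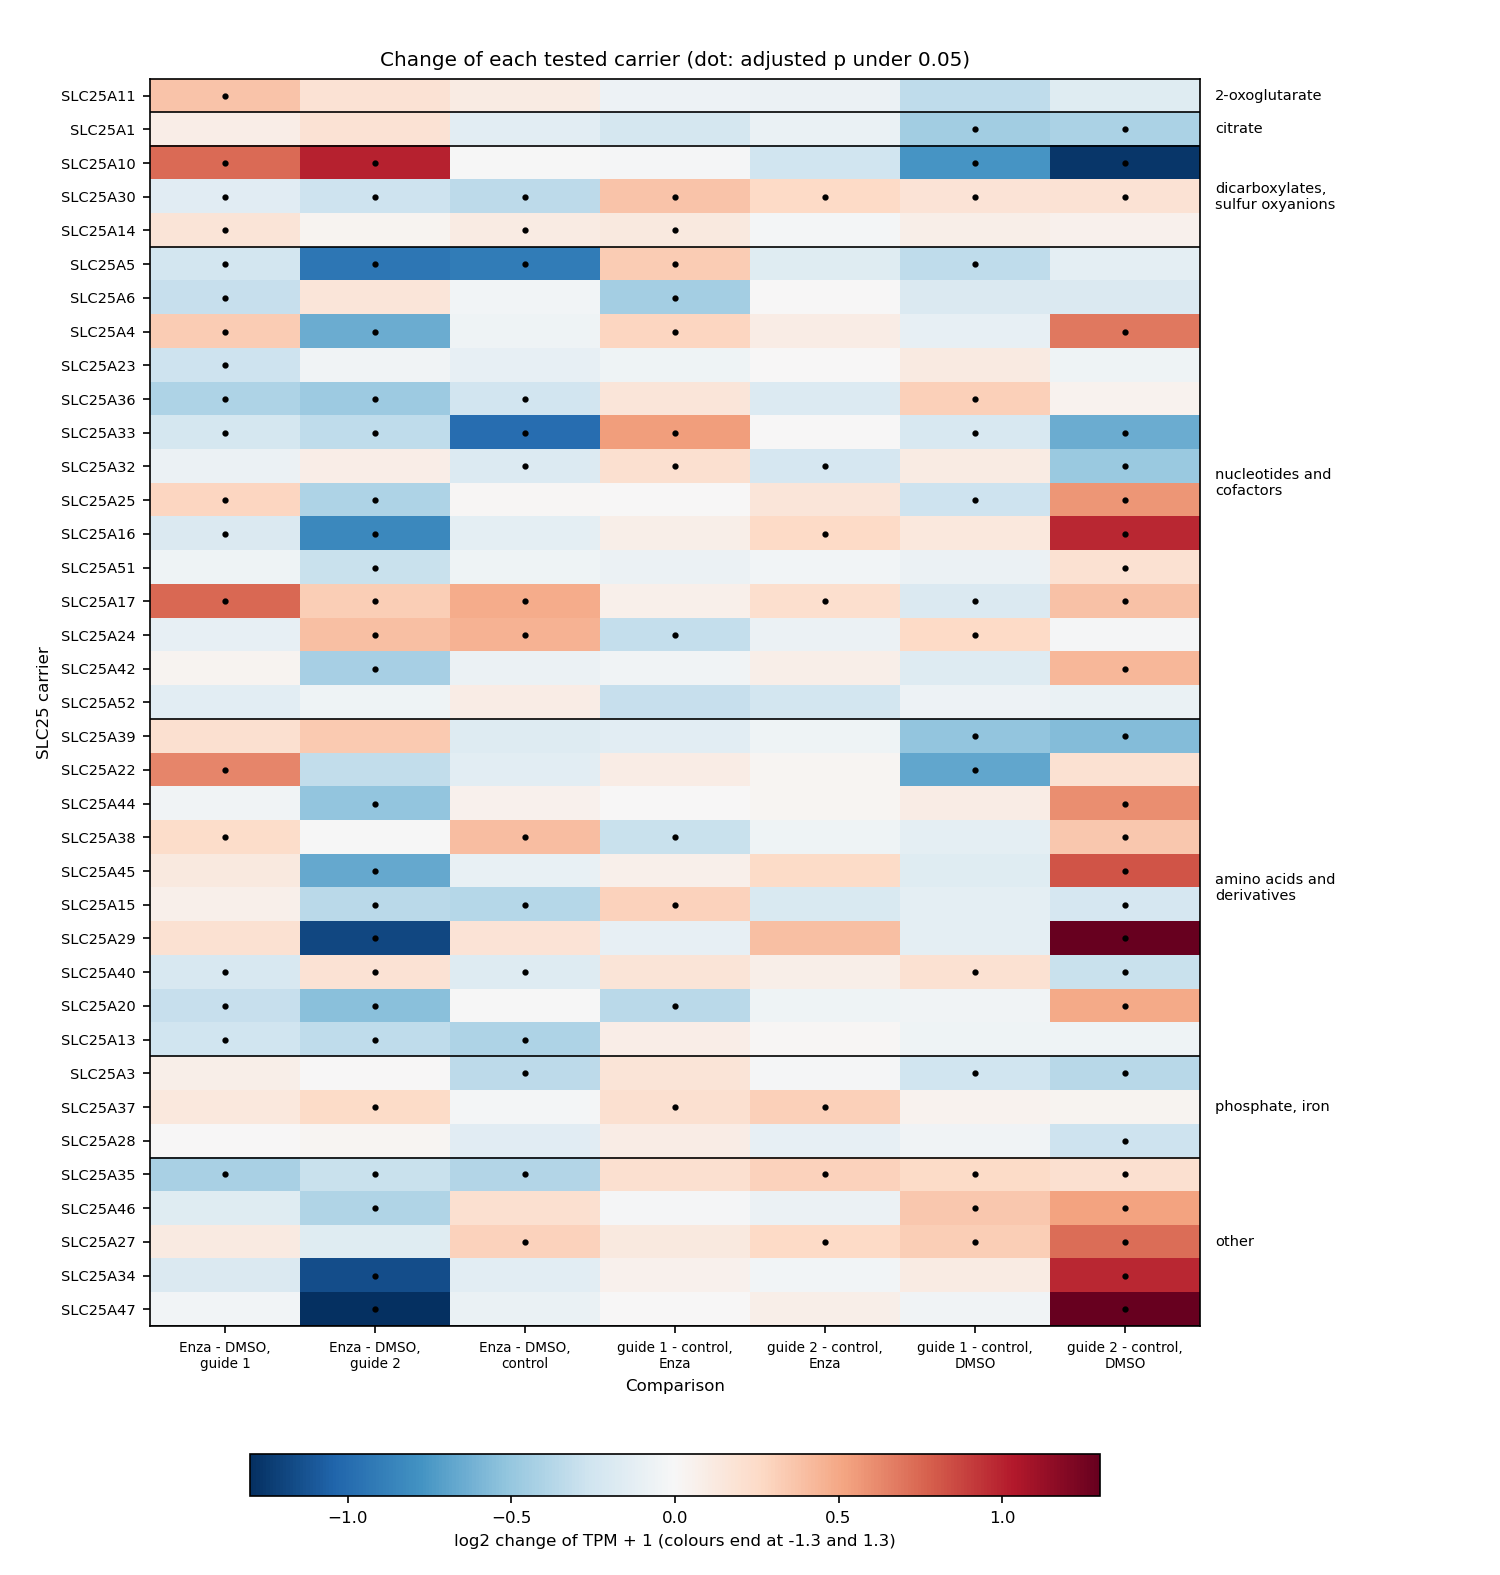
Log2 change of 37 of the 38 tested carriers (rows, grouped by substrate) in 7 comparisons (columns), in colour from -1.3 to 1.3, with a dot where the adjusted p was under 0.05. SLC25A5 and SLC25A33 are at -0.90 and -0.99 for enzalutamide in control cells, and SLC25A29 is at 1.75 in the libraries labelled guide 2 in DMSO, through which alone SLC25A34 and SLC25A47 passed the filter on low values.

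Against control cells in enzalutamide, guide 1 had 13 of the 38 carriers called, 9 higher and 4 lower, and guide 2 had 7, 6 higher and 1 lower. Over all genes, 30.6% were called with guide 1, 16.3% higher and 14.3% lower, and 14.0% with guide 2, 8.97% higher and 5.02% lower. The carriers' median change was 0.06 with guide 1, against 0.0007 over all genes, and -0.01 with guide 2, against 0.02. With guide 2 the count fell to 3 without control library 1 in enzalutamide, guide 2 library 1 or guide 2 library 2 there. In these fits 10.1%, 9.29% and 8.57% of all genes were called. The count was 11 (20.2% of all genes called) without guide 1 library 3 in DMSO, which enters through the shared spread alone. On TPM as deposited, 1 carrier was called with guide 1 (SLC25A24), where 7.07% of all genes were called by limma, and none with guide 2, where 1.25% of all genes were called and 2 carriers had an unadjusted p under 0.05.

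In DMSO, guide 1 had 16 carriers called, 7 higher and 9 lower, where 32.2% of all genes were called, 21.1% higher and 11.1% lower. No carrier was called once control library 1 or 3, or guide 1 library 1 or 2, was left out, with 15 to 20 at an unadjusted p under 0.05. In those fits 0.971% to 1.98% of all genes were called. There were 9 called carriers without control library 2 (23.1% of all genes) and 28 without guide 1 library 3 (56.6% of all genes). The largest of these changes were in SLC25A10 (-0.77, SE 0.24, limma adjusted p = 0.033) and in the glutamate carrier SLC25A22, which had 22.6, 37.8 and 57.9 TPM in guide 1 cells, against 58.4, 60.1 and 59.7 TPM in control cells (-0.68, SE 0.21, adjusted p = 0.033). The first guide 1 library was the lowest and the third close to control cells for both genes. The mitochondrially encoded share ran the opposite way, highest in the first guide 1 library and lowest in the third, and its part in these values was not tested.

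The libraries labelled guide 2 in DMSO had 27 carriers called, 17 higher and 10 lower, where 74.9% of all genes were called, 50.9% higher and 24.0% lower. The median of all genes was itself 0.23 above control cells, and 0.04 with median-of-ratios scaling, under which 6416 genes were higher and 5589 lower in place of 8185 and 3853. The carriers' median was 0.05. With median-of-ratios scaling 14 carriers were called higher and 18 lower (75.2% of all genes called), and with quantile normalization 10 and 18 (75.5%). SLC25A29, a carrier of basic amino acids, had 26.2, 31.8 and 29.3 TPM in these libraries, against 7.73, 8.18 and 7.85 TPM in control cells (1.75, SE 0.16, limma adjusted p = 8.3e-08). SLC25A47 had 5.89, 6.02 and 5.11 TPM, against 0.123, 0.0723 and 0.107 TPM in control cells. The pair are neighbours on chromosome 14, with 16789 bases between them. SLC25A47 and SLC25A34 passed the filter on low values through these 3 libraries alone, so that their levels are a description, and both are among the 17 called higher here and the 19 that fell with enzalutamide in guide 2 cells. SLC25A4 had 98.5, 104 and 102 TPM, against 62.2 to 63.4 TPM in control cells (0.69, SE 0.04, adjusted p = 6e-10). The summed level of the 11 markers of other cell types was 37.4 to 46.7 TPM in these libraries and 15.9 to 16.9 TPM in control cells in DMSO. The 9 markers other than CD68 and COL1A1 did not exceed 0.610 TPM in any library, and PTPRC, COL1A2, DCN and PECAM1 did not exceed 0.0392 TPM. Among them, CDH5 had 0.311 to 0.362 TPM in the libraries labelled guide 2 in DMSO, against 0.00442 to 0.0125 TPM in control cells in DMSO, PDGFRB had 0.565 to 0.574 TPM, against 0.198 to 0.230 TPM, and CD3E had 0.0176 to 0.0402 TPM, against at most 0.00737 TPM. The part of these markers in the result was not tested.

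Within guide 1 cells, 8 of the 38 carriers rose with enzalutamide and 11 fell, where 42.8% of all genes were called, 19.5% higher and 23.3% lower. Within guide 2 cells 5 rose and 19 fell, where 72.6% were called, 23.0% higher and 49.7% lower. That comparison rests on the DMSO libraries that went against their label. Its split did not hold under other scalings. With median-of-ratios scaling 16 carriers rose and 15 fell (71.9% of all genes called), and with quantile normalization 16 and 10 (73.6%). SLC25A5 had 652 to 669 TPM in guide 2 cells in enzalutamide, against 1202 to 1312 TPM in the libraries labelled guide 2 in DMSO (-0.94, SE 0.08, limma adjusted p = 4.4e-08). Whether the drug effect itself differed was tested as the drug effect in guide cells less that in control cells. With guide 1, 10 carriers differed, 8 with a higher and 2 with a lower drug effect than in control cells, where 26.8% of all genes differed, 11.6% higher and 15.2% lower. SLC25A33 changed by -0.23 with the drug in guide 1 cells and by -0.99 in control cells, a difference of 0.75 (SE 0.10, limma adjusted p = 8.9e-05). SLC25A5 changed by -0.24 and -0.90, a difference of 0.67 (SE 0.11, adjusted p = 0.00054). The fall of SLC25A5 in guide 1 cells was no longer called without guide 1 library 2 or 3 in enzalutamide, and that of SLC25A33 without library 2, whereas both differences were called in every fit that left out 1 library.

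**Figure D4:**
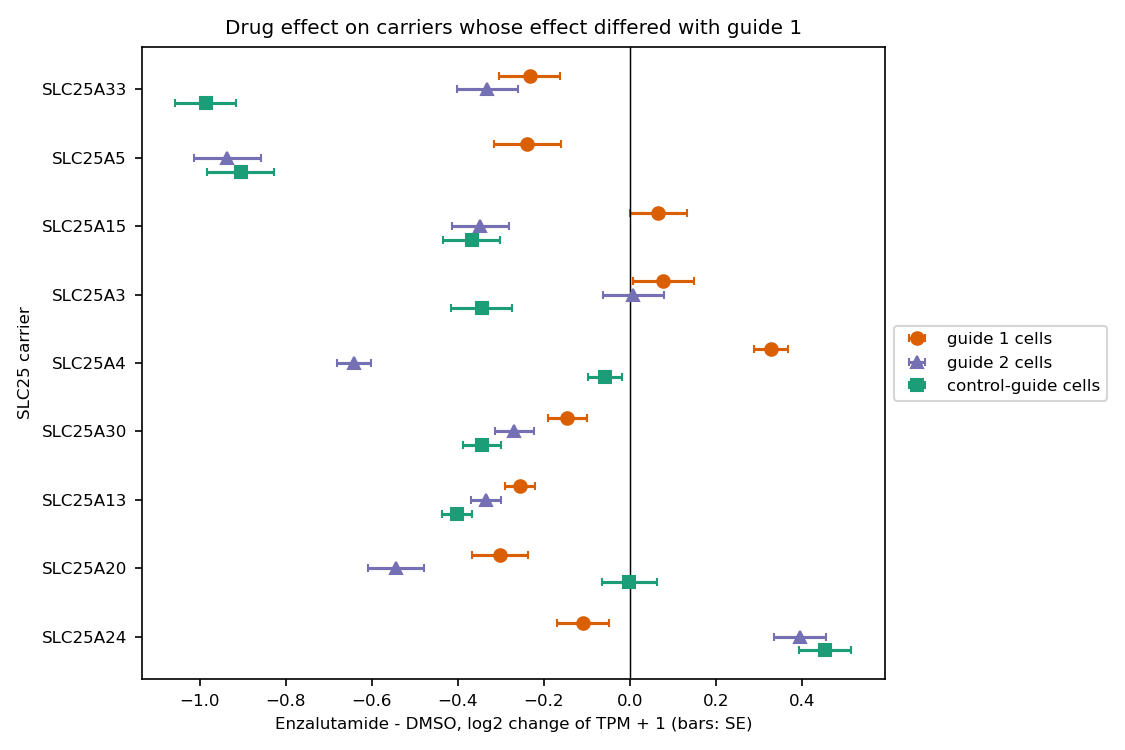
Enzalutamide less DMSO, as log2 change of TPM + 1 with its SE (x axis), in guide 1, guide 2 and control cells, for 9 of the 10 carriers whose drug effect differed between guide 1 and control cells (y axis). SLC25A5 is at -0.24 in guide 1 cells, -0.94 in guide 2 cells and -0.90 in control cells.

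With guide 2, 20 carriers differed from control cells in their drug effect, 7 higher and 13 lower (SLC25A34 and SLC25A47 among them), where 63.2% of all genes differed, 19.5% higher and 43.7% lower. The median over all genes was -0.20, and -0.02 with median-of-ratios scaling. With that scaling 16 carriers were called higher and 10 lower (63.1% of all genes called), and with quantile normalization 16 and 9 (64%). SLC25A5 was not among the 20: it changed by -0.94 with the drug in guide 2 cells and by -0.90 in control cells (difference -0.03, SE 0.11, limma adjusted p = 0.82).

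The enzymes and proteins that work with these carriers were examined as 3 lists. Of 9 enzymes of the malate-aspartate shuttle and of citrate metabolism, 1 rose and 8 fell with enzalutamide in control cells, where 47.9% of all genes were called, 24.8% lower. The mitochondrial aspartate aminotransferase GOT2 had 88.1, 82.2 and 82.6 TPM in control cells in enzalutamide, against 174, 177 and 174 TPM in DMSO (-1.05, SE 0.05, limma adjusted p = 1.1e-10), and its cytosolic counterpart GOT1 fell by 0.58 (SE 0.07, adjusted p = 6.4e-06). With guide 1 in enzalutamide, 3 of the 9 were higher than in control cells and 1 lower, where 30.6% of all genes were called. GOT1 was higher (0.44, SE 0.07, adjusted p = 0.00022), whereas GOT2 had 89.8, 84.0 and 84.6 TPM, close to control cells in the drug.

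Of 14 tested transporters and channels outside the symbol rule, 1 rose and 9 fell with the drug in control cells (47.9% of all genes called). MPC2, a subunit of the mitochondrial pyruvate carrier, had 45.2, 42.4 and 42.7 TPM in control cells in enzalutamide, against 106, 107 and 106 TPM in DMSO (-1.27, SE 0.04, limma adjusted p = 7.9e-13). In guide 1 cells in enzalutamide it had 99.9, 92.6 and 94.9 TPM, above the control cells in the drug (1.12, SE 0.04, adjusted p = 2.1e-11). Of the 14, 9 were higher there and 1 lower, where 30.6% of all genes were called, 16.3% higher and 14.3% lower. Among the 9 was UCP3, at most 1.27 TPM (limma adjusted p = 0.048), whose call was lost in 11 fits that left out 1 library. UCP2 and SFXN5, at most 1.65 and 2.12 TPM, passed the filter through the 3 libraries labelled guide 2 in DMSO alone. The outer-membrane channel VDAC3 had the same order as MPC2, with 78.2, 74.6 and 77.4 TPM in guide 1 cells in enzalutamide, against 57.8, 55.8 and 55.2 TPM in control cells in enzalutamide (0.44, SE 0.08, adjusted p = 0.00062). Of 12 import proteins on the route by which carriers reach the inner membrane, 3 rose and 5 fell with the drug in control cells (47.9% of all genes called). TOMM40, the pore of the outer membrane, fell by 0.59 (SE 0.15, adjusted p = 0.0048) and the chaperone TIMM10 by 0.53 (SE 0.07, adjusted p = 1.5e-05). With guide 1 in the drug, 3 of the 12 were higher than in control cells and 1 lower (30.6% of all genes called).

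The 10 carriers that were not tested were SLC25A2, SLC25A12, SLC25A18, SLC25A21, SLC25A26, SLC25A31, SLC25A41, SLC25A43, SLC25A48 and SLC25A53. SLC25A26, the S-adenosylmethionine carrier, reached 1 TPM in 2 libraries, and SLC25A12 in none. Of the tested carriers, SLC25A51 and SLC25A52, which carry NAD, are near-identical in sequence and may share reads, and SLC25A52 reached 1 TPM in 11 libraries.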

How the data were processed

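RNA from 16D cells was made into stranded mRNA libraries and sequenced as paired ends, per the labels' protocols. STAR and GRCh38 are named, without versions, in the submitters' processing notes, but what tool counted reads, and over which gene models, is not given in the sources used here. In TPM, computed by the authors, the deposited table holds 37347 rows for 18 libraries. TPM fixes each library's sum, so abundant transcripts move all others, and it keeps no depth.

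The 10345 rows without a gene name stayed out of the tests, with 15.2% to 20.4% of the TPM outside mitochondrial rows, but counted in the rescaling. The 37 mitochondrially encoded rows were dropped, since their share differed between groups, and each library was rescaled to 1000000. Of repeated symbols, 32 were summed and 3 with 5 or more rows left out. limma 3.58.1 (R 4.3.3) was fitted to log2(TPM + 1) with 6 group means, a trended prior and a filter of 1 TPM in at least 3 libraries. It was also run on simulated data. These had the same spread in all groups and few changed genes, unlike the libraries here, so they do not show how the fit did on them. Shares and ratios were compared by two-sided exact permutation tests.

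The family and the gene lists were chosen with earlier results of these data known. Genes named were SLC25A1, SLC25A3 to SLC25A6, SLC25A10 to SLC25A13 and SLC25A21, up to 5 rising and 5 falling called carriers per comparison with 5 TPM or more in a group, up to 3 and 3 per companion list, and OGDHL and KLK3. Other carriers are named with their levels, or because their drug effect differed between guides. Counts include 1 carrier whose values are not reported here. The copies of SLC25A5 and its antisense row SLC25A5-AS1 were chosen after their values were seen. Alternatives were TPM as deposited, pseudocounts of 0.1 and 5, a 5 TPM filter or none, median-of-ratios and quantile scaling, array weights, a fit of the compared libraries, a replicate block, and leaving out each library. Coordinates are from GENCODE 29 (GRCh38), and promoters from RefSeq (GRCh38.p14), which held windows for 40 of the 48 carriers. Python 3.11.15, numpy 2.4.6, pandas 2.3.3, scipy 1.17.1 and matplotlib 3.10.9 were used.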

Additional observations from a re-analysis of the deposited data

Results flagged for a closer look

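The carriers named below had a drug effect in cells with an OGDHL guide that differed from the drug effect in control cells, by limma's test of that difference with an adjusted p under 0.05 over 16067 genes. Values are the log2 change with enzalutamide in guide cells less that in control cells.

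With guide 1, the drug effect was higher than in control cells for SLC25A33 (0.75), SLC25A5 (0.67), SLC25A15 (0.43), SLC25A3 (0.42), SLC25A4 (0.39), SLC25A30 (0.20) and SLC25A13 (0.15), with adjusted p from 8.9e-05 to 0.039. It was lower for the ATP-magnesium and phosphate carrier SLC25A24 (-0.56, adjusted p = 0.00027) and the carnitine carrier SLC25A20 (-0.30, adjusted p = 0.026). SLC25A24 changed by -0.11 with the drug in guide 1 cells and by 0.46 in control cells. SLC25A4 changed by 0.33 in guide 1 cells and by -0.06 in control cells. The calls of SLC25A13, SLC25A20 and SLC25A30 were lost in 13, 4 and 6 of the fits that left out 1 library. On TPM as deposited, where 6.95% of all genes differed, 3 carriers' differences were called, those of SLC25A5 and SLC25A33 among them.

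With guide 2, the drug effect was lower than in control cells for SLC25A29 (-1.36), the coenzyme A carrier SLC25A16 (-0.72), SLC25A46 (-0.59), SLC25A4 (-0.58), SLC25A45 (-0.57), the branched-chain amino acid carrier SLC25A44 (-0.57), SLC25A20 (-0.54), SLC25A27 (-0.46), SLC25A25 (-0.42), SLC25A38 (-0.40) and SLC25A42 (-0.35), with adjusted p from 3.2e-07 to 0.024. It was higher for SLC25A10 (1.00), SLC25A33 (0.65), SLC25A40 (0.36), SLC25A3 (0.35), SLC25A37 (0.27) and SLC25A32 (0.26), with adjusted p from 4.7e-05 to 0.027. All of these differences rest on the libraries labelled guide 2 in DMSO, in which OGDHL went against the label. SLC25A47 (-2.52) and SLC25A34 (-1.02) were called lower too, but passed the filter on low values through those DMSO libraries alone, so that their differences are a description. SLC25A47 had 0.0473 to 0.162 TPM in guide 2 cells in enzalutamide, against 5.11 to 6.02 TPM in those DMSO libraries. In the same order SLC25A10 had 44.2 to 48.8 TPM, against 21.9 to 23.3 TPM. Median-of-ratios scaling and quantile normalization moved the median of all genes here, from -0.20 to -0.02 (median of ratios) and 0.07 (quantiles), and the calls of SLC25A25, SLC25A42 and SLC25A45 were lost under both.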

How the results depend on the processing

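The depth behind a TPM is unknown, 3 libraries a group limit precision, and no fit separates the libraries labelled guide 2 in DMSO from their group. With TPM as deposited, called carriers numbered 5 for enzalutamide in control cells, 11 for it in guide 1 cells, 25 and 16 for guides 1 and 2 in DMSO, 1 and 0 for them in enzalutamide, and 3 and 8 for the differences in drug effect. In the same order, 20.8%, 29.9%, 57.8%, 59%, 7.07%, 1.25%, 6.95% and 43.6% of all genes were called. With array weights, whose estimate stopped before its convergence tolerance, there were 24 for enzalutamide in control cells, 30 for enzalutamide in guide 1 cells, 36 for guide 1 in DMSO, 15 for guide 2 in enzalutamide and 24 for the difference with guide 1. Of all genes, 63%, 71.8%, 76.4%, 32.5% and 58.7% were called, in that order. Fitting only the libraries compared gave 6 for enzalutamide in guide 1 cells, 0 for guide 1 in DMSO (8 at an unadjusted p under 0.05, limma) and 12 for guide 2 in enzalutamide. There 20.7%, 0% and 22.2% of all genes were called. No filter gave 8 for guide 1 in DMSO, where 14% of all genes were called. Leaving out the guide 2 DMSO group, an alternative chosen after seeing the data as was rescaling over named rows, gave 4 for guide 2 in enzalutamide. In that fit 13.1% of all genes were called. The other counts moved by less than 1.5 times under these alternatives, pseudocounts of 0.1 and 5, a 5 TPM filter, and both scalings. These counts are totals over both directions. For guide 2 in DMSO, enzalutamide in guide 2 cells and the difference with guide 2, the carriers' split by direction held under neither scaling, as given above. Leaving out 1 library gave 12 to 18 for enzalutamide in control cells, 11 (without guide 1 library 2 in enzalutamide) to 29 (without guide 1 library 3 in DMSO) in guide 1 cells and 24 to 30 in guide 2 cells. It gave 0 to 28 and 24 to 29 for guides 1 and 2 in DMSO, 10 to 17 and 3 to 11 in enzalutamide, and 7 to 21 (21 without guide 1 library 3 in DMSO) and 18 to 24 for the differences. For guide 2 in enzalutamide the count was 4 without library 1 of control cells in DMSO, library 3 of control or guide 2 cells in enzalutamide, or guide 1 library 2 in DMSO. In these fits 9.4% to 12.8% of all genes were called.

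Direction turned on TPM as deposited for enzalutamide in guide 1 cells: SLC25A5 (0.11), SLC25A6 (0.050), SLC25A16 (0.10), SLC25A23 (0.063), SLC25A30 (0.14), SLC25A33 (0.069) and SLC25A40 (0.077). It turned likewise for guide 1 in DMSO: SLC25A14 (-0.20), SLC25A23 (-0.36), SLC25A24 (-0.077), SLC25A30 (-0.23), SLC25A32 (-0.32), SLC25A35 (-0.21), SLC25A36 (-0.15), SLC25A37 (-0.41), SLC25A40 (-0.19), SLC25A44 (-0.36) and SLC25A46 (-0.10). For guide 2 in DMSO it turned under median-of-ratios scaling for SLC25A14 (-0.11), SLC25A30 (-0.017), SLC25A35 (-0.011), SLC25A37 (-0.18) and SLC25A51 (-0.00045), and under quantile normalization for SLC25A14 (-0.31), SLC25A30 (-0.11), SLC25A35 (-0.061), SLC25A36 (-0.23), SLC25A37 (-0.21) and SLC25A51 (-0.11). For enzalutamide in guide 2 cells, SLC25A23 (0.17) and SLC25A38 (0.21) turned under median of ratios, and SLC25A23 (0.24), SLC25A30 (0.0093), SLC25A35 (0.0020) and SLC25A38 (0.27) under quantiles, as did SLC25A14 (0.25) and SLC25A24 (0.28) for the difference with guide 2. In the fit used above, SLC25A14, SLC25A23, SLC25A32, SLC25A37 and SLC25A44 had not been called for guide 1 in DMSO. The same held for SLC25A14, SLC25A36 and SLC25A37 with guide 2 in DMSO, and for SLC25A23 and SLC25A38 with enzalutamide in guide 2 cells. Neither difference with guide 2 had been called. These uncalled values lay between -0.08 and 0.12, so that no direction had been established, whereas the other changes that turned had been called. The cause was not tested. Of all called genes, 68.0% were higher with guide 2 in DMSO, against 53.4% under median of ratios and 45.1% under quantiles. For enzalutamide in guide 2 cells the share was 31.6%, against 48.1% and 55.7%, and for the difference with guide 2 it was 30.9%, against 47.0% and 55.2%. For guide 1 in DMSO it was 65.4%, against 52.1%, 54.3% and, as deposited, 0.529%, for enzalutamide in guide 1 cells 45.6%, against 88.1% as deposited, for guide 1 in enzalutamide 53.2%, against 30.5%, for the difference with guide 1 43.4%, against 81.7%, and for guide 2 in enzalutamide 64.1%, against 52.7% under quantiles.

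Libraries of different groups share replicate numbers, but the labels do not say that a number pairs them. Deviations from group means correlated at 0.11, 0.05 and 0.09 for guide 1 and control cells in enzalutamide and at 0.06, 0.05 and 0.09 in DMSO, each best with its own number, and at -0.29 to -0.13 for guide 1 cells between drug and DMSO. With the replicate number as a block, 13, 20 and 24 carriers were called for enzalutamide in control, guide 1 and guide 2 cells, 11 and 27 for guides 1 and 2 in DMSO, 13 and 5 in enzalutamide, and 8 and 20 for the differences.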
